A study of Mus musculus with 8 samples.

Results

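The Hedgehog pathway genes described here were the 7 rows carrying the symbols Ihh, Ptch1, Hhip, Smo, Gli1, Gli2 and Gli3 among 24421 genes, each read in 8 RNA-seq libraries. The cells were calvarial osteoblastic cells from newborn C57BL/6 mice, wild type (WT) or lacking Def6 (Def6-/-), taken at day 0 or after 12 days in osteogenic medium that held ascorbic acid and β-glycerophosphate. The 4 groups were therefore WT day 0, Def6-/- day 0, WT day 12 and Def6-/- day 12, with 2 libraries each. The study called its 2 libraries per condition biological replicates and used WT littermates as controls. Neither its text nor the labels said whether replicates came from separate litters or cultures, so p-values measure only the spread between these libraries. Values are CPM, read counts scaled to a common library size, rescaled here to reads on genes and between libraries (normalized CPM), and the reads behind them were recovered from the deposited CPM.

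Hedgehog ligands are secreted proteins, of which Indian hedgehog (Ihh) acts in the skeleton. Without ligand, the receptor Patched (Ptch1) holds Smoothened (Smo) inactive. With ligand, Smo is released and signals through the primary cilium to the Gli transcription factors, and Gli1, Ptch1 and Hhip are themselves transcribed in response, so their transcripts are commonly read as a sign of pathway activity. In bone, Ihh is made chiefly by prehypertrophic chondrocytes and is needed for osteoblast formation in endochondral bones.

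On GRCm38 (mm10), with GENCODE vM21 gene models, Ihh is at chr1:74945315-74951672 on the minus strand, Ptch1 at chr13:63508328-63573598 on the minus strand, Hhip at chr8:79965851-80058006 on the minus strand and Smo at chr6:29735503-29761365 on the plus strand. Gli1 is at chr10:127329882-127341974 on the minus strand, Gli2 at chr1:118834132-119053619 on the minus strand and Gli3 at chr13:15463235-15730026 on the plus strand. Whether the counting used strand was not given in the sources used here. Exons of other genes overlapped 327 exonic bases of Gli1 (Arhgap9 and Gm47200), 188 of Gli3 (Gm6556) and 175 of Hhip (Gm27820), so some reads of these 3 genes cannot be assigned with certainty. Ptch1, Smo, Gli2 and Ihh had no such overlap.

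The 250 bases before the start site of the ligand and of both ligand-binding genes are shown because Ihh and Hhip were called in both genotypes and Ptch1 is the receptor of the same ligand, with each CpG in capitals (RefSeq, GRCm38.p6, 5′ to 3′ on the gene's strand). The windows are chr1:74951673-74951922 for Ihh, chr8:80058009-80058258 for Hhip and chr13:63565736-63565985 for Ptch1, all on the minus strand, and the Ptch1 window belongs to a start site inside the GENCODE gene.
Ihh: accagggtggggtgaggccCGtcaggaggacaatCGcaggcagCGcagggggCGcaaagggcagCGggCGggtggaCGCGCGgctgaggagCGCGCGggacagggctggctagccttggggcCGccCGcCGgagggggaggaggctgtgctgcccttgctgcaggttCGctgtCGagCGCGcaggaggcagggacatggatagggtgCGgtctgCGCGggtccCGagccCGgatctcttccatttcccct
Hhip: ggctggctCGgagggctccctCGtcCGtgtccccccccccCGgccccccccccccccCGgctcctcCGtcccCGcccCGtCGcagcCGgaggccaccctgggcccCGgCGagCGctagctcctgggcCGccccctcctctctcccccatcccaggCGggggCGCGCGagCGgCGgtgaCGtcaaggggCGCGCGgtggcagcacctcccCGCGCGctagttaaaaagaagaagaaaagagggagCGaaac
Ptch1: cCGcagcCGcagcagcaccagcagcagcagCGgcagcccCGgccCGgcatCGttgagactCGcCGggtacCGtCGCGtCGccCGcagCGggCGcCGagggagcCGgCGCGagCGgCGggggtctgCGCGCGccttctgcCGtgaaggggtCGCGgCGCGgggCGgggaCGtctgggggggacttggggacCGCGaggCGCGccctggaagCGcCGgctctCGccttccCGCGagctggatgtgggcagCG
The windows held 24, 28 and 41 CpG, against a median of 6 over the windows of 32851 genes. Their GC content was 72%, 76% and 78.4%, against a median of 52.4%. Windows were also found for Smo, Gli2 and Gli3, with 15, 22 and 34 CpG, making 6 of the 7 genes matched, with Gli1 the other. The Gli motif GACCACCCA, searched on both strands, was in 0 of these 6 windows and in 74 of all 32851 (0.225%), which describes only these letters in these windows.

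Reads on genes ran from 2414856 to 3482837 per library, which is 28.8% to 35.3% of all reads. Def6 checked the labels, with 112 to 186 reads in the 4 WT libraries and 0 to 2 in the 4 Def6-/- libraries. WT day 0 replicate 1 stood apart from the other libraries. Its correlation with the other day 0 libraries over the genes tested was 0.927 to 0.951, against 0.973 to 0.984 for other pairs of the same day, and 34.9% of its reads were not uniquely assigned, the highest share of the 8. Day results of the 7 genes and most counts of calls over days are therefore given with and without it. Leaving it out leaves WT day 0 with 1 library, which is then assumed to vary like the other groups. The 9 osteoblast markers summed to 36256 to 130213 normalized CPM per library, most of it from Col1a1, Col1a2, Sparc and Spp1. At day 0 Ibsp held 2 to 26 reads, Alpl 35 to 59 and Bglap 0, so that Bglap could only rise. With all libraries, 4 of the 9 were called higher at day 12 in WT and 5 in Def6-/-, and 0 lower. Over all genes tested, 12.1% were called higher in WT and 11% in Def6-/-. The median difference of the 9 markers on the log2(normalized CPM + 1) scale was 1.35 in WT and 1.15 in Def6-/-. Without WT day 0 replicate 1 it was 0.84 and 1.22. The 5 skeletal muscle markers summed to at most 11.2, with Myod1 at 0 reads in every library, and the 5 endothelial markers to at most 12.8.

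Ihh was the Hedgehog ligand read in these cells, and it was read only at day 12. All 4 day 0 libraries held 0 reads of Ihh. At day 12 the WT libraries held 15 and 8 reads (4.27 and 3.28 normalized CPM), and the Def6-/- libraries held 12 and 4 reads (4.81 and 1.66 normalized CPM). Every day 12 library was thus above every day 0 library, while the genotypes overlapped at day 12. The share of all genes with such an order over days was not counted, for Ihh or for the genes that follow. Against a floor of 3 reads per library, Ihh was at least 3.33-fold higher at day 12 in WT and at least 2.93-fold higher in Def6-/- (limma adjusted p = 0.0103 and 0.0189, n = 2 per group, and 0.0164 and 0.00776 without WT day 0 replicate 1). In bulk RNA, more cells that express a gene and more RNA per cell cannot be told apart, for Ihh or for the genes that follow. Because day 0 was at 0, Ihh passed the filter on low values through day 12 only. The WT call was lost without WT day 12 replicate 1 (adjusted p = 0.0806), and the Def6-/- call was lost without Def6-/- day 0 replicate 1 (0.11), day 0 replicate 2 (0.0941) or day 12 replicate 1 (0.11). Of the other ligands, Shh had 0 reads in all 8 libraries and Dhh had 1 read, in WT day 0 replicate 2.

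**Figure D1:**
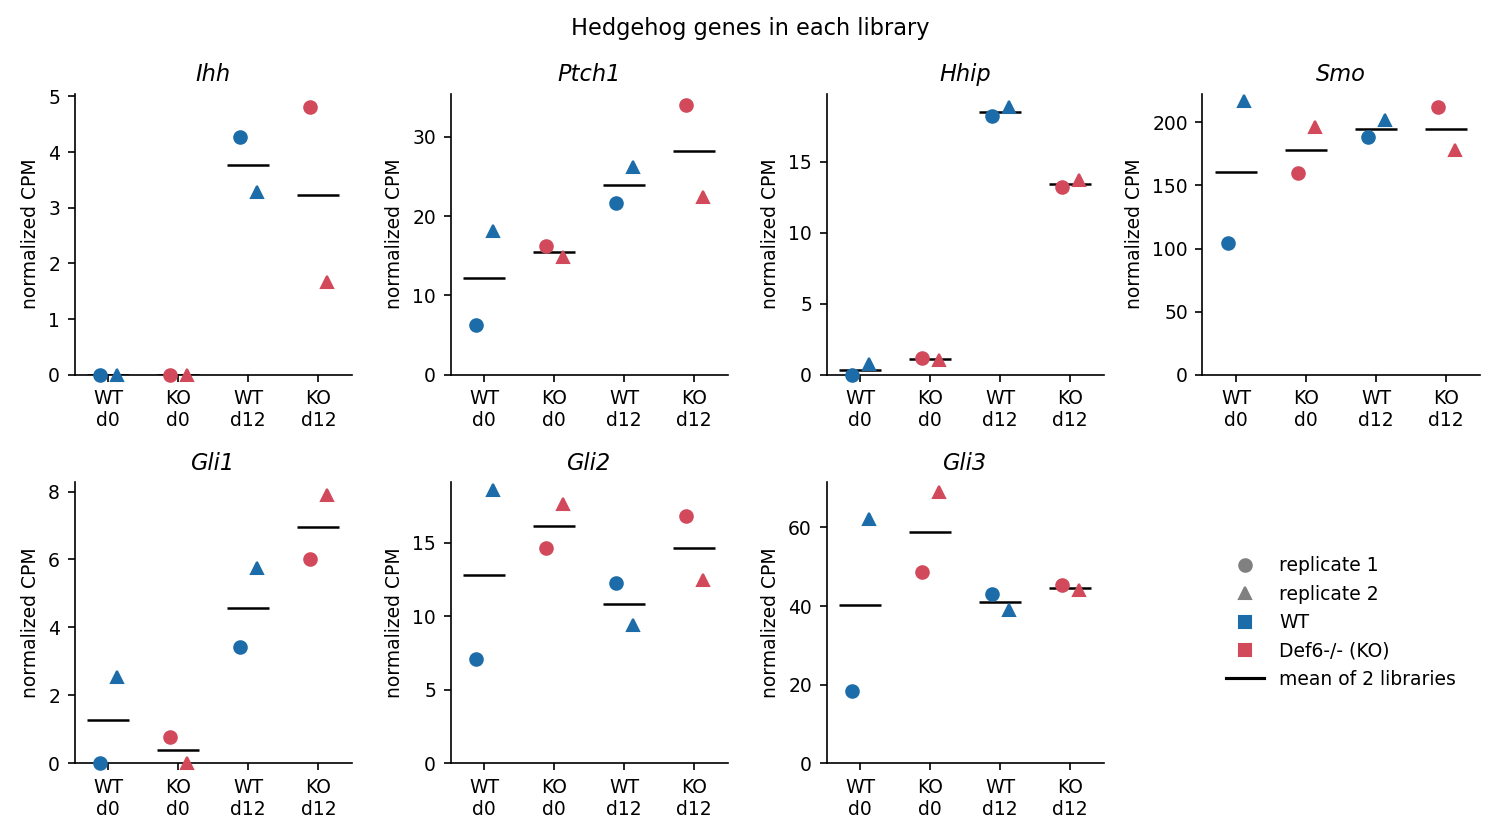
Normalized CPM (linear axes from 0) of the 7 Hedgehog genes in each of the 8 libraries, by genotype and day, with circles for replicate 1, triangles for replicate 2 and a line at the mean of 2 libraries. Ihh and Hhip were at or near 0 at day 0 and higher in every day 12 library, and WT day 0 replicate 1 was the lowest library for Ptch1, Smo, Gli2 and Gli3.

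Hhip, a membrane protein that binds and sequesters Hedgehog ligands, rose from near 0 at day 0 in both genotypes. The WT libraries held 0 and 2 reads at day 0 and 64 and 46 at day 12, which is 0 and 0.73 against 18.2 and 18.9 normalized CPM. The Def6-/- libraries held 3 and 3 reads at day 0 and 33 and 33 at day 12, which is 1.16 and 1.06 against 13.2 and 13.7 normalized CPM. The days did not overlap in either genotype. Hhip passed the filter on low values through day 12 alone, so it had to be higher there, and its tests over days are a description. The fitted difference on the log2(normalized CPM + 1) scale was 3.89 in WT (SE 0.35, adjusted p = 0.000224) and 2.78 in Def6-/- (SE 0.35, adjusted p = 0.00117). From the summed reads the ratio of day 12 to day 0 was 49.0 in WT (95% interval 13.2 to 409, counting error only) and 12.2 in Def6-/- (5.31 to 34.4). Both calls stood without WT day 0 replicate 1 (WT log2 difference 3.53, adjusted p = 4.69e-05, and Def6-/- 2.83, adjusted p = 3.1e-05).

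Ptch1, the receptor, was read at moderate depth on both days. It held 16 and 50 reads in WT and 42 and 42 in Def6-/- at day 0 (6.28, 18.2, 16.2 and 14.8 normalized CPM). At day 12 it held 76 and 64 reads in WT and 85 and 54 in Def6-/- (21.6, 26.3, 34.1 and 22.4 normalized CPM). All 4 day 12 libraries were above all 4 day 0 libraries, an order given as a description, since its share over all genes was not counted. The log2 difference was 1.07 in WT (SE 0.43, adjusted p = 0.12) and 0.80 in Def6-/- (SE 0.43, adjusted p = 0.248), neither of which passed. When WT day 0 replicate 1 was left out, the Def6-/- difference of 0.86 passed (SE 0.24, adjusted p = 0.0146) while the WT difference of 0.42 did not (SE 0.29, adjusted p = 0.326).

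Smo, the signal transducer that Ptch1 holds inactive, was the most abundant of the 7 genes per kilobase of exon in every group. Its group means were 28.6 to 34.7 normalized CPM per kb, and its lowest library was above the highest library of the next gene, Gli3, in each group. Per library it held 266 and 597 reads in WT day 0, 415 and 558 in Def6-/- day 0, 661 and 492 in WT day 12 and 528 and 429 in Def6-/- day 12. Apart from WT day 0 replicate 1 at 104 normalized CPM, the libraries lay between 160 and 217. The days differed by 0.37 on the log2 scale in WT (95% interval -0.33 to 1.07) and by 0.13 in Def6-/- (-0.57 to 0.83), and without that library by -0.11 (-0.46 to 0.25) and 0.20 (-0.09 to 0.49).

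Gli1, an activating Gli factor and a transcript induced by the pathway, was nearly unread at day 0. The WT libraries held 0 and 7 reads at day 0 and 12 and 14 at day 12 (0, 2.55, 3.41 and 5.74 normalized CPM). The Def6-/- libraries held 2 and 0 reads at day 0 and 15 and 19 at day 12 (0.77, 0, 6.02 and 7.89 normalized CPM). Every day 12 library was above every day 0 library. Gli1 also passed the filter on low values through day 12 alone, so its tests over days are a description. The log2 difference was 2.57 in Def6-/- (SE 0.60, adjusted p = 0.0207) and 1.53 in WT (SE 0.60, adjusted p = 0.114), so that the rise was called in Def6-/- alone. Summed reads gave a ratio of 18.8 in Def6-/- (95% interval 4.83 to 162) and 3.31 in WT (1.40 to 9.02). The Def6-/- call rested on few reads and was lost when any 1 of its own 4 libraries was left out (adjusted p = 0.0612 and 0.133 without day 0 replicates 1 and 2, 0.0811 and 0.122 without day 12 replicates 1 and 2) and with a pseudocount of 0.1 (0.0793). It stood without WT day 0 replicate 1 (adjusted p = 0.000657), while WT was further from the threshold (log2 difference 0.66, adjusted p = 0.396). The test of the difference between the genotypes' changes did not pass, as given below.

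Gli2 and Gli3, the Gli factors that carry the signal before Gli1 is made and of which Gli3 acts mainly as a repressor, did not pass in either genotype. Gli2 held 18 and 51 reads in WT day 0, 38 and 50 in Def6-/- day 0, 43 and 23 in WT day 12 and 42 and 30 in Def6-/- day 12. Gli3 held 47 and 171 reads in WT day 0, 126 and 196 in Def6-/- day 0, 151 and 95 in WT day 12 and 113 and 106 in Def6-/- day 12. Leaving out WT day 0 replicate 1, the day 0 libraries of Gli3 (48.5 to 69.0 normalized CPM) were all above the day 12 libraries (39.0 to 45.3). The day difference of Gli3 was then -0.54 in WT (SE 0.22, adjusted p = 0.0888) and -0.30 in Def6-/- (SE 0.18, adjusted p = 0.214), against 0.26 and -0.37 with all libraries (adjusted p = 0.737 and 0.647). For Gli2 the values were -0.69 (SE 0.31, adjusted p = 0.134) and -0.08 (SE 0.26, adjusted p = 0.851) without that library, against -0.10 and -0.14 with it (adjusted p = 0.898 and 0.859).

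Of the 7 genes, then, 2 rose in WT (Hhip and Ihh) and 3 in Def6-/- (Gli1, Hhip and Ihh), and 0 fell. All 7 passed the filter of a mean of at least 1 CPM in a group, but Ihh, Hhip and Gli1 passed it through day 12 alone, so the counts are a description. Over the 12348 genes tested, 12.1% were called higher and 6.61% lower in WT, and 11% higher and 6.2% lower in Def6-/-. Without WT day 0 replicate 1 the calls were 2 of 7 in WT (background 15% higher and 9.99% lower) and 4 of 7 in Def6-/- (19.5% higher and 15.3% lower). Markers of other cells moved over the same days. All 10 macrophage markers were called higher at day 12 in both genotypes, their sum going from 178 to 388 at day 0 to 3010 to 6099 normalized CPM. Of 6 adipocyte markers tested, 5 were called higher in WT and 6 in Def6-/-. Adipoq, Plin1, Fabp4 and Cfd among them passed the filter through day 12 alone, so the adipocyte counts are a description too. Leaving out WT day 0 replicate 1 changed none of these 4 counts of macrophage and adipocyte markers. Among 7 chondrocyte markers tested, 2 were called higher and 1 lower in WT, and 3 higher and 2 lower in Def6-/- (2 and 2, and 3 and 2, without that library), the list's sum being 2019 to 4020 at day 0 and 1199 to 1653 at day 12. Col2a1, the cartilage collagen, held most of that sum and fell (1811 to 3657 against 632 to 995 normalized CPM, adjusted p = 0.0255 in WT and 0.00964 in Def6-/-). Acan was also lower in every day 12 library (75.3 to 152 against 29.3 to 48.4). Col10a1, the collagen of hypertrophic chondrocytes, rose (5.01 to 8.10 against 23.7 to 52.7, adjusted p = 0.00548 and 0.00512). Comp rose more (15.5 to 25.8 against 304 to 395), and Col9a1 was higher in every day 12 library (8.81 to 17.5 against 25.3 to 43.3). Sox9 and Hapln1 overlapped between days. The endothelial markers, low throughout, summed to 0.785 to 5.64 normalized CPM at day 0 and 10.8 to 12.8 at day 12. Tek, the 1 endothelial marker tested, passed the filter through day 12 alone. It was called higher in WT (limma adjusted p = 0.0345) and was not called in Def6-/-. The part of these cells in the changes of the Hedgehog genes was not tested.

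**Figure D2:**
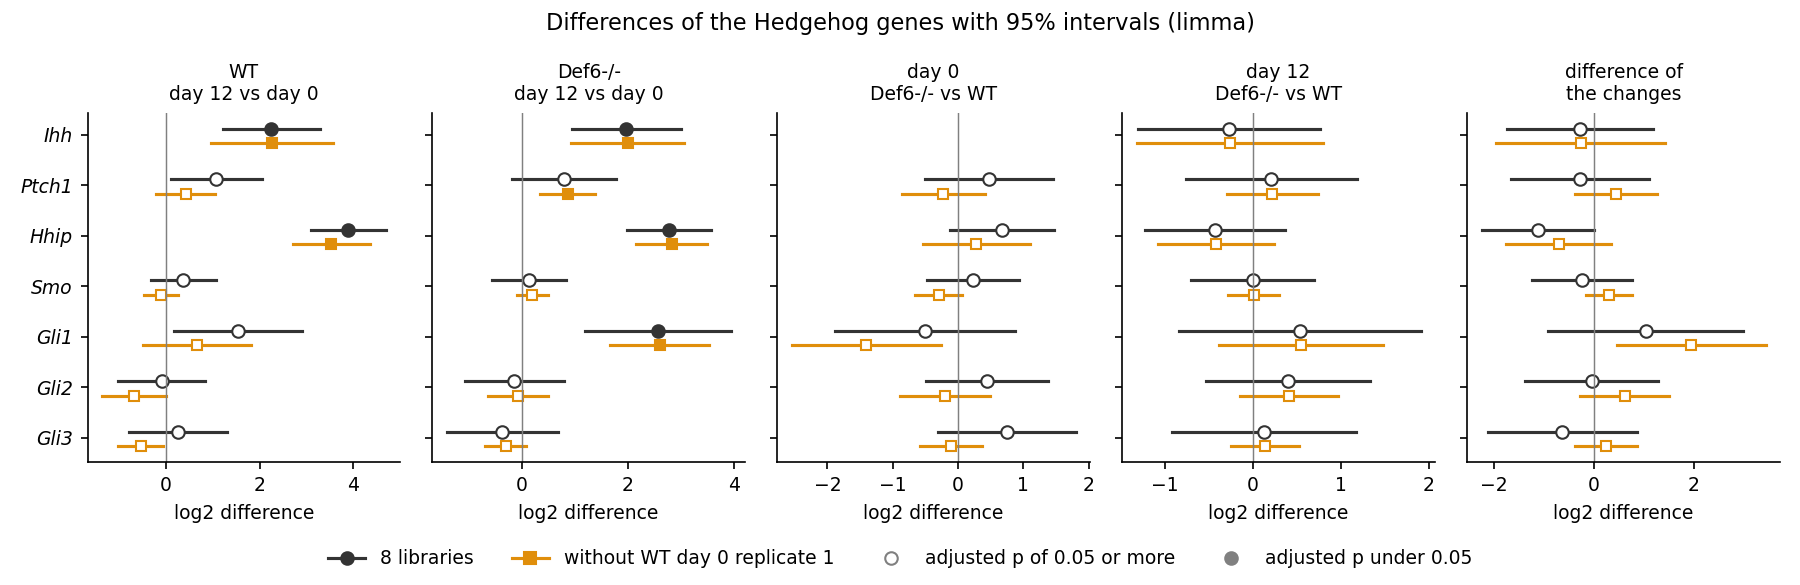
Differences on the log2(normalized CPM + 1) scale with 95% intervals from limma for the 7 genes in 5 comparisons, with all 8 libraries (circles) and without WT day 0 replicate 1 (squares), filled where the adjusted p was under 0.05. Filled points are those of Ihh and Hhip in both genotypes over days, of Gli1 in Def6-/-, and of Ptch1 in Def6-/- without that library, and Ihh has no value at day 0.

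The order of levels per kilobase of exon changed below the top of the list. In all 4 groups Smo was first and Gli3 second, with group means of Gli3 between 4.21 and 6.13 normalized CPM per kb. In Def6-/- day 0 Gli2 (2.35 ± 0.31, SD, n = 2) and Ptch1 (1.09 ± 0.07) followed, with Hhip (0.12 ± 0.01) and Gli1 (0.08 ± 0.11) overlapping and Ihh last. In WT day 12 Hhip followed at 2.04 ± 0.05, above the Ptch1 libraries (1.69 ± 0.23), and Ptch1, Gli2 (1.58 ± 0.29), Ihh (1.24 ± 0.23) and Gli1 (0.92 ± 0.33) each overlapped the next gene. In Def6-/- day 12 Gli2 (2.13 ± 0.45) and Ptch1 (1.99 ± 0.58) overlapped, as did Hhip (1.48 ± 0.04), Gli1 (1.39 ± 0.26) and Ihh (1.06 ± 0.73). In WT day 0 each gene from Gli3 down overlapped the next.

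WT day 0 replicate 1 was low in the Hedgehog genes that had reads at day 0. Against the mean of the other 3 day 0 libraries its ratio was 0.546 for Smo, 0.383 for Ptch1, 0.417 for Gli2 and 0.308 for Gli3. Of the 10560 genes at 5 CPM or more, 12%, 3.85%, 5.05% and 1.84% had a lower ratio in that library. In the other 3 libraries the ratios of these 4 genes ran from 0.926 to 1.60. The library also held 0 reads of Gli1 and of Hhip, against 0 to 7 and 2 to 3 reads in the other day 0 libraries. Over all of those 10560 genes, 8.99% were below 0.5 times the mean of the other 3 libraries and 6.65% above 2 times, against at most 2.32% and 0.748% in the others.

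**Figure D3:**
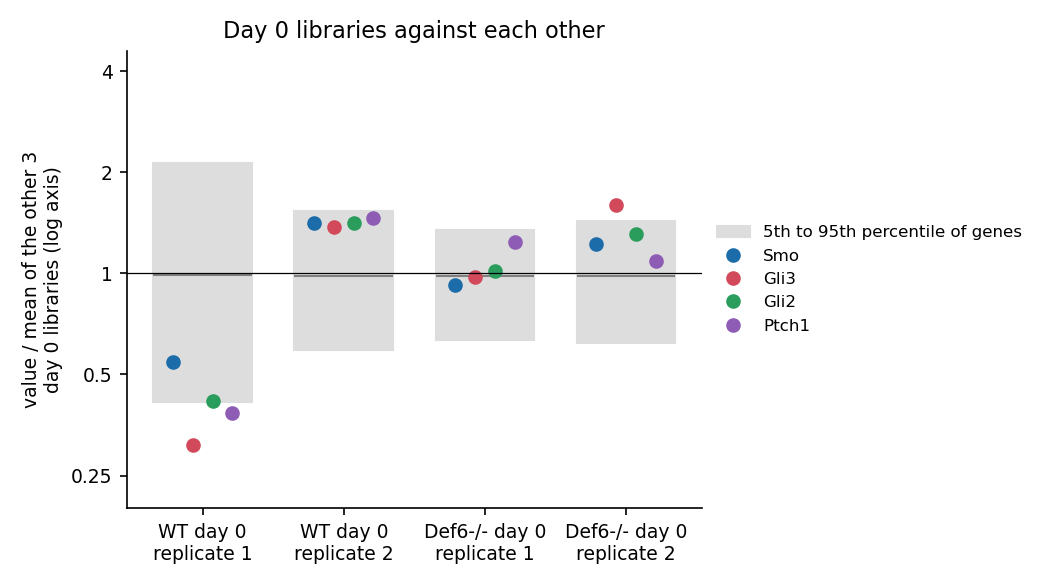
Each day 0 library's value divided by the mean of the other 3 day 0 libraries (log axis) for Smo, Gli3, Gli2 and Ptch1, over a grey bar from the 5th to the 95th percentile of genes at 5 CPM or more, with a line at their median. All 4 genes sat under 0.6 in WT day 0 replicate 1, where the grey bar is also the longest, and between 0.926 and 1.60 in the others.

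The comparison of genotypes asked whether the loss of Def6 altered these genes before and after differentiation. At day 0, 0 of the 6 genes with reads passed by adjusted p in limma, edgeR or DESeq2, and 0 had an unadjusted limma p under 0.05 (background 0.0081% by adjusted p, and 2.34% by an unadjusted p under 0.05 with over 1.2-fold, the study's own criterion). The log2 difference of Def6-/- from WT was 0.75 for Gli3 (SE 0.46), 0.48 for Ptch1 (SE 0.43), 0.44 for Gli2 (SE 0.41), 0.23 for Smo (SE 0.31), 0.68 for Hhip (SE 0.35) and -0.50 for Gli1 (SE 0.60). Without WT day 0 replicate 1 the first 4 were -0.11, -0.22, -0.20 and -0.30, so that their direction rested on that library. Hhip was then 0.28 (SE 0.37). Gli1 was then -1.40 (unadjusted p = 0.0207, adjusted p = 0.971), a contrast of 7 reads in 1 WT library with 2 and 0 reads. The Def6-/- pair lay wholly above the WT pair for Hhip alone, with 3 and 3 reads against 0 and 2, a ratio of 2.92 with a counting interval of 0.523 to 29.6, and 11.8% of all genes showed that order (10.9% the reverse).

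At day 12, 0 of the 7 genes passed by adjusted p in limma, edgeR or DESeq2 or by the study's criterion (background 0.0081% and 1.39%), and 0 had an unadjusted limma p under 0.05. The Def6-/- pair lay wholly above the WT pair for all 3 Gli genes (log2 difference 0.53 for Gli1, 95% interval -0.84 to 1.91, 0.40 for Gli2, -0.54 to 1.33, and 0.12 for Gli3, -0.93 to 1.18). That is 3 of 7, where 15% of all genes showed that order. For Hhip the Def6-/- pair lay wholly below the WT pair (log2 difference -0.43, 95% interval -1.23 to 0.36), an order that 17.7% of all genes showed. Ptch1 (0.21, -0.77 to 1.18), Smo (0.00, -0.71 to 0.70) and Ihh (-0.27, -1.31 to 0.76) overlapped between genotypes. The 8 adipocyte markers summed to 309 to 327 normalized CPM in WT and 418 to 427 in Def6-/- at day 12. Lpl alone held most of each sum (275 and 291 in WT, 360 and 345 in Def6-/-). Of the 6 adipocyte markers tested, the Def6-/- pair lay wholly above the WT pair for 5, Pparg overlapped, and 0 passed by adjusted p. Adipoq and Cfd among the 5 passed the filter on low values through Def6-/- day 12 alone, which favors that order. The count of 5 is therefore a description. The part of these marker differences in the values of the Hedgehog genes was not tested. The intervals reach past 1 log2 unit on at least 1 side for Ptch1, Gli1, Gli2, Gli3, Hhip and Ihh, so differences of that size on that side were not excluded.

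The change over days differed between genotypes for 0 of the 7 genes by adjusted p in limma, edgeR or DESeq2 (background 0%) and for 0 by the study's criterion (1.06%). Hhip came nearest, with a rise smaller by 1.11 on the log2 scale in Def6-/- (difference -1.11, SE 0.49, 95% interval -2.24 to 0.01, unadjusted p = 0.0521). That difference without WT day 0 replicate 1 was -0.70 (unadjusted p = 0.171). For Gli1 the difference was 1.03 (SE 0.86, unadjusted p = 0.258), and without that library 1.95 (SE 0.67, unadjusted p = 0.0143, adjusted p = 0.977). The call of Gli1 over days in Def6-/- and not in WT is therefore not a tested difference between them. Leaving out the other WT day 0 library instead, so that WT day 0 was replicate 1 alone, called 4 genes at day 0 (Ptch1, Smo, Gli2 and Gli3), where 23.6% of all genes were called, and 2 in the change over days (Smo and Gli3), where 10.7% were. In the same setting 6 of the 7 genes were called higher over days in WT (24.1% of all genes) and 4 in Def6-/- (17.7%).

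The other genes of the pathway came from a list of 56, of which 49 were tested. Of these, 5 rose and 3 fell over days in WT, and 3 rose and 2 fell in Def6-/-, with a median log2 difference of -0.01 and -0.11 against -0.04 and -0.07 over all genes tested. Without WT day 0 replicate 1 the counts were 5 and 9 in WT, and 6 and 8 in Def6-/-. With all libraries, the share that rose, 5 or 3 of 49, was near or under the background of 12.1% and 11% given above. The share that fell, 3 or 2 of 49, was near or under 6.61% and 6.2%. Both comparisons cover the fit of all libraries only. More of the 49 fell without WT day 0 replicate 1, but the share of all genes that fell, given above, was also higher in that fit. The larger count there is therefore not read as a result about these genes. Of the genes named next, Scube2 passed the filter on low values through day 12 alone and Foxf2 through day 0 alone, so each had to differ between days and their values are a description.

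Scube2, a secreted protein that helps release lipid-modified ligand, rose the most. It held 2 and 2 reads in WT and 4 and 5 in Def6-/- at day 0, and 44 and 36 in WT and 44 and 42 in Def6-/- at day 12. No day 12 library came near a day 0 library, and the log2 difference was 3.06 in WT (SE 0.29, adjusted p = 0.000303) and 2.81 in Def6-/- (SE 0.29, adjusted p = 0.000482), or 3.11 and 2.86 without WT day 0 replicate 1. Its summed reads gave a ratio of 17.8 in WT (95% interval 6.69 to 66.9) and 10.6 in Def6-/- (5.33 to 23.9). Gas1, a cell-surface co-receptor for Hedgehog ligands, went from 91.8 and 132 normalized CPM in WT and 94.4 and 151 in Def6-/- at day 0 to 725 and 591 in WT and 603 and 530 in Def6-/- at day 12. The log2 difference of Gas1 was 2.56 in WT (SE 0.27, adjusted p = 0.000453) and 2.23 in Def6-/- (SE 0.27, adjusted p = 0.000896), or 2.35 and 2.30 without that library, and its exons overlap the noncoding Gm48488. The co-receptor Boc did not pass in either genotype (log2 difference 0.24 in WT and 0.06 in Def6-/-, adjusted p = 0.481 and 0.875). The co-receptor Cdon did not pass with all libraries (-0.12 and -0.50, adjusted p = 0.838 and 0.359), and without WT day 0 replicate 1 it was lower at day 12 in both genotypes (-0.68 and -0.44, adjusted p = 0.0101 and 0.0244).

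Of 17 genes tested that process or restrain Gli proteins, 2 rose and 1 fell in WT, and 1 rose and 0 fell in Def6-/-. Over all genes tested, 12.1% rose and 6.61% fell in WT, and 11% and 6.2% in Def6-/-, so the counts were near or under these shares. When WT day 0 replicate 1 was left out, 2 rose and 5 fell in WT, and 2 rose and 2 fell in Def6-/-. The shares over all genes in that fit, given above, were also higher than with all libraries. Cul1, a ubiquitin ligase scaffold, rose in both genotypes (log2 difference 0.79 in WT and 0.71 in Def6-/-, adjusted p = 0.0182 and 0.0297). Prkacb, a catalytic subunit of protein kinase A, rose in WT (0.59, adjusted p = 0.0454), as did Evc2, a ciliary protein that acts with Smo (0.73, adjusted p = 0.0244). Csnk1e, a casein kinase, fell in WT (-0.78, adjusted p = 0.029). The calls of Cul1, Prkacb, Evc2 and Csnk1e in WT stood without that library (adjusted p = 0.00457, 0.0222, 0.011 and 0.028), where Prkacb, Evc2 and Csnk1e were also called in Def6-/- (0.0376, 0.00651 and 0.0306). Arl13b, a small GTPase of the cilium, fell in WT (-0.71, adjusted p = 0.048) but not without WT day 0 replicate 1 (adjusted p = 0.0605), and it was the 1 gene called of 12 cilium genes tested. Sufu, the main binding inhibitor of Gli proteins, did not pass in either genotype (0.29 in WT and -0.11 in Def6-/-, adjusted p = 0.432 and 0.79).

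Among the transcription targets other than Gli1, Ptch1 and Hhip, the genes called with all libraries were the forkhead genes Foxf1 and Foxf2. Without WT day 0 replicate 1 the cyclin gene Ccnd2 was also lower at day 12 in WT (-1.04, adjusted p = 0.00428) and Def6-/- (-0.76, adjusted p = 0.0057), and Ccnd1 was higher in Def6-/- (0.33, adjusted p = 0.0473). Foxf2 went from 9 and 13 reads in WT and 17 and 15 in Def6-/- at day 0 to 1 and 2 in each genotype at day 12 (log2 difference -1.74 in WT, adjusted p = 0.0144, and -2.10 in Def6-/-, adjusted p = 0.00603, and 0.0207 and 0.0028 without that library). The ratio of its summed reads was 0.121 in WT (95% interval 0.0233 to 0.404) and 0.104 in Def6-/- (0.0204 to 0.332). Foxf1 fell in Def6-/- (-1.16, adjusted p = 0.0313), with 24 and 20 reads at day 0 and 8 and 7 at day 12, and did not pass in WT (-0.90, adjusted p = 0.0733). Between genotypes 0 of the 49 passed by adjusted p, and 1 met the study's criterion on each day, the forkhead gene Foxd1. Foxd1 held 153 and 168 normalized CPM in WT and 97.5 and 125 in Def6-/- at day 0, and 142 and 149 against 116 and 98.4 at day 12. The Def6-/- pair lay wholly below the WT pair on each day (log2 difference -0.54, SE 0.19, unadjusted p = 0.0192, adjusted p = 0.905 at day 0, and -0.44, SE 0.19, unadjusted p = 0.0432, adjusted p = 1 at day 12). A count of 1 of 49 lies at the background of 2.34% and 1.39%.

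**Figure D4:**
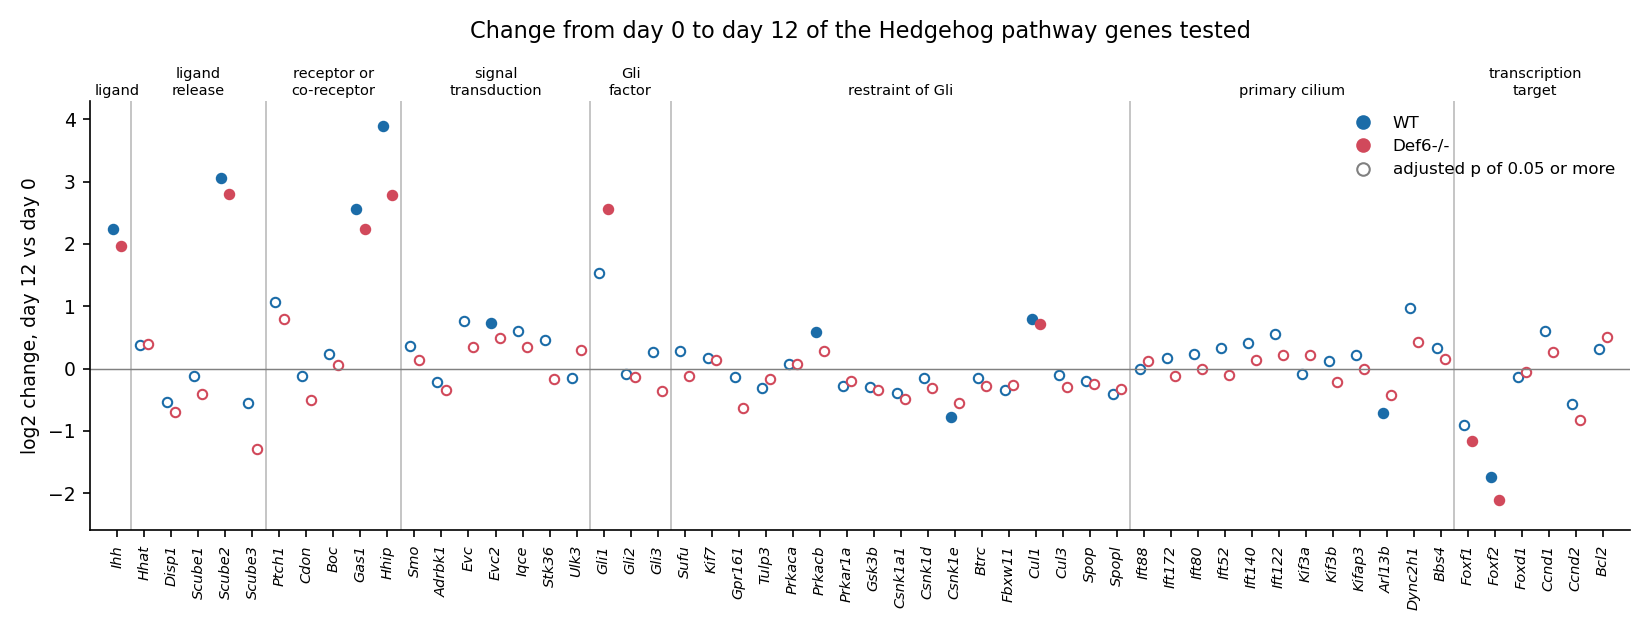
Log2 difference of day 12 from day 0 on the log2(normalized CPM + 1) scale for each tested Hedgehog pathway gene by role, in WT (blue) and Def6-/- (red), filled where the adjusted p was under 0.05 (Adrbk1 is the files' symbol for Grk2). Hhip, Scube2, Gas1 and Ihh stood high in both genotypes and Gli1 in Def6-/-, Foxf2 was lowest, and the genes of the Gli restraint and cilium lists lay between -1 and 1.

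The genes whose profile over the 8 libraries was most like that of Gli1 were Plin4, Ldb2 and Apol6, with root mean square differences of 0.35, 0.35 and 0.37 between centred log2 profiles. Plin4 ran from 0.352 to 1.54 normalized CPM at day 0 and from 2.85 to 7.06 at day 12. Among the 12347 other genes, Ptch1 ranked 737 and Ihh 748 in likeness to Gli1, and Hhip 1699. The genes most like Ptch1 were Unc5a, Fut4 and Ksr1 (0.16, 0.17 and 0.18), and Smo ranked 644. The 8 libraries hold 2 days and 1 library that stood apart, which all profiles share, so the ranks describe these libraries only.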

How the data were processed

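Polyadenylated RNA of 8 libraries was sequenced, and per the labels and the study's methods the authors used HISAT2 on mm10, HTSeq and edgeR, with fastp also named. The deposited unit is CPM per gene, computed by the authors over all reads, rows for unassigned reads included (these were left out here). Whole reads were recovered from the step of 1 read (0.101 to 0.140 CPM), with 99.957% of 114821 values above 0 whole within 0.01 reads and all values of the Hedgehog genes whole. CPM was rescaled to the reads on genes and by TMM factors. Genes with a mean of at least 1 CPM in a group were tested (12348 genes) with limma 3.58.1 in R 4.3.3 on log2(normalized CPM + 1), 4 group means, 4 residual degrees of freedom, with Benjamini-Hochberg adjustment over all genes tested and a threshold of 0.05. Reads were also tested with edgeR 4.0.16 and DESeq2 1.42.0. The test was checked on simulated data.

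Low counts are given as ratios of summed reads with exact 95% intervals, and a group at 0 reads by a floor of 3 reads per library, both covering counting error only. Named were the 7 genes, the called genes of the pathway lists (at most 5 in a direction by smallest p, for genotype also by the study's criterion), Def6, and the 3 genes nearest to Gli1 and Ptch1. Markers, Ccnd1, Ccnd2, Cdon, Boc, Sufu, Shh and Dhh are named beyond that rule. The genes and lists were chosen with earlier results of these data known. The alternatives were the other tests, pseudocount, filter, scaling, replicate block, fewer groups and each library left out. Same-numbered replicates are not tied to a shared source in the labels and were not paired.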

Additional observations from a re-analysis of the deposited data

How the results depend on the processing

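Of 503 recomputed values of single genes, 451 kept their direction and side of the threshold, 13 passed newly, 9 no longer passed and 30 changed sign, none of which passed in the fit of all libraries. The counts of genes called with all libraries were 2 in WT and 3 in Def6-/- over days and 0 in the other comparisons. With 1 library left out they ran from 1 to 6 (WT over days), 1 to 4 (Def6-/- over days), 0 to 4 (genotype at day 0), 0 to 0 (genotype at day 12) and 0 to 2 (difference of the changes). The highest of each of the 4 ranges that reach above 0 came without WT day 0 replicate 2, which leaves the library that stood apart as the only WT day 0 library (for Def6-/- over days, 4 also came without WT day 0 replicate 1). In that setting 24.1%, 17.7%, 23.6% and 10.7% of all genes were called in the same 4 comparisons, for the changes over days counting those higher at day 12. The replicate block left the counts at 2, 3, 0, 0 and 0. Correlations of same-numbered deviations were 0.00284 to 0.325, and the block changed no call of the 7 genes.

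Sign changes in settings that kept all libraries were of differences near 0. Those with 1 library left out included larger ones, such as Gli3 between genotypes at day 0 (0.75 with all libraries). Smo between genotypes at day 12 was 0.0159 in edgeR, 0.0111 in DESeq2 and 0.0832 with CPM as deposited, and Gli2 in the difference of the changes was 0.13 in edgeR and 0.13 in DESeq2. With 1 library left out, the ranges of the log2 differences that changed sign were as follows. Over days in WT they were -0.11 to 0.89 for Smo, -0.69 to 0.54 for Gli2 and -0.54 to 1.11 for Gli3. Over days in Def6-/- they were -0.0171 to 0.32 for Smo and -0.28 to 0.12 for Gli2. Between genotypes at day 0 they were -0.22 to 1.18 for Ptch1, -0.30 to 0.76 for Smo, -1.40 to 0.41 for Gli1, -0.20 to 1.08 for Gli2 and -0.11 to 1.60 for Gli3. Between genotypes at day 12 they were -0.0675 to 0.51 for Ptch1, -0.11 to 0.13 for Smo and -0.83 to 0.30 for Ihh. In the difference of the changes they were -0.97 to 0.45 for Ptch1, -0.76 to 0.31 for Smo, -0.68 to 0.61 for Gli2, -1.48 to 0.24 for Gli3 and -0.83 to 0.30 for Ihh. The cause of these changes was not tested. Fitting only the groups compared called 4 genes in Def6-/- over days, Ptch1 added, and a pseudocount of 0.1 called 2, without Gli1. Depth limits Ihh, Gli1 and day 0 Hhip, which rest on 0 to 7 reads at day 0.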
